A study of Danio rerio with 96 samples.

Results

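The chromosome 3 amplicon is a 182 bp stretch of the zebrafish genome (chromosome 3, 25887983 to 25888164, build GRCz10 per the submitters' processing notes, 1-based) in which 6 CpGs were read on the plus strand. It was taken as the run of cytosine calls on that strand between these ends, and a CpG was kept where at least 48 of the 96 libraries held at least 30 reads. All 6 CpGs passed, out of 50 CpGs in 8 amplicons of the series. They lie at 25888004, 25888039, 25888047, 25888054, 25888068 and 25888127, and are named by their distance in bp from the first as CpG +0, +35, +43, +50, +64 and +123. The sources used here give neither the gene at this position nor whether it is exonic or intronic, so no gene is named.

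DNA came from dissected heads of larvae aged 5 days post-fertilisation. There were 4 groups of 24 libraries: wild-type control and glucocorticoid receptor (GR) mutant control larvae held in 0.2% ethanol, and wild-type and GR mutant larvae held in 100 µM betamethasone. The labels give neither the mutant allele nor the start and length of the exposure, and they do not name clutches, plates or batches. They give no ethanol content for the treated larvae, so the part of ethanol in the betamethasone differences was not tested. Each library was counted as 1 larva, so p-values measure the spread between these libraries. A head holds many cell types, and a level is the mean over all of them, so a change within cells and a change in the mixture of cells cannot be told apart.

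Methylation of cytosine at CpGs is copied to the new strand at each cell division by maintenance DNA methyltransferase, and most CpGs of vertebrate genomes are methylated. Lower levels are typical of CpG-rich promoters and of active enhancers, where bound transcription factors and TET enzymes take part in removing the mark. GR is a nuclear receptor that binds cortisol and then binds DNA; betamethasone is a synthetic glucocorticoid that also binds it. In mammals, GR binding can be followed by loss of methylation at nearby CpGs. Bisulfite turns unmethylated cytosine into a base read as T and leaves methylated cytosine as C, so the level is the percentage of reads with C.

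The sequence is shown because the 4 CpGs of the middle differ most in level although they lie within 30 bp. No genome of the files' build was used, and the letters are those that the deposited cytosine contexts give: each listed cytosine with the base after it. Where the context is CHG (H is any base but g), the g after H is also given. CG in capitals marks a CpG, and n is a base that the contexts do not give. The middle stretch is chr3:25888024-25888083, with CpGs +35, +43, +50 and +64 in that order. The first CpG is shown within chr3:25887989-25888019 and the last within chr3:25888112-25888142, all on the plus strand.
core: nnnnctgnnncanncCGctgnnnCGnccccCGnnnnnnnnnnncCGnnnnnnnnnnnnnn
CpG +0: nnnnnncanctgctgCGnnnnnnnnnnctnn
CpG +123: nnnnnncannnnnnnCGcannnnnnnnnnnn
Neighbouring CpGs are 35, 8, 7, 14 and 59 bp apart. CpG +0 lies 21 bp from the start of the amplicon, where a base can come from a primer, and CpG +123 lies 37 bp from its end. In all, 58 of the 182 letters were known, too few to search for a binding motif of GR or of any other factor.

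Depth set the libraries apart before any level was compared. The depth of a library was taken as its median number of reads over the 6 CpGs. Its median was 136 in control and 1109 in treated wild-type larvae, against 3702 in control and 136 in treated GR mutants. Of the 94 libraries with any read here, 49 had under 300 reads, 12 had 300 to under 1000 and 33 had at least 1000, of which 22 had at least 8000, close to the highest depth of 8034. Whether the deposited counts were capped near 8000 was not tested. Depth ratios, the depth covariate and correlations with depth use the counts as deposited. The deep class held 3 control and 12 treated wild-type libraries, and 16 control and 2 treated mutant ones. Wild-type betamethasone replicate 2 and GR mutant betamethasone replicate 3 gave no read, and 91 libraries had at least 30 reads at all 6 CpGs. The geometric mean depth differed in each of the 4 pairs of groups by two-sided permutation tests with Benjamini-Hochberg adjustment. It was 5.46 times as high under betamethasone as in control in wild type (adjusted p = 0.00178) and 0.104 times as high in GR mutants (adjusted p = 8e-05). GR mutants had 8.13 times the depth of wild type in control and 0.154 times under betamethasone (adjusted p = 0.00024 for both). Depth therefore moved with the groups, and each comparison is also given for libraries under 1000 and under 300 reads. The first class was not matched in depth: the median number of reads at CpG +43 was 128 in control and 202 in treated wild-type larvae, and 424 in control and 128 in treated mutants. In the second these medians were 122, 94, 111 and 128. Reads carry no molecular identifiers and are PCR copies, so read depth bounds counting error only.

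Over all libraries, the 6 CpGs formed a graded profile that had the same order of group means in all 4 groups. From lowest to highest the order was CpG +43, +64, +35, +50, +0 and +123. In wild-type control larvae the mean level was 21.6% ± 9.18 (SD, n = 23) at CpG +43, 50.1% ± 12.5 (n = 23) at CpG +64 and 56.1% ± 15.4 (n = 23) at CpG +35. The outer and upper sites stood at 65.0% ± 9.76 (n = 23) at CpG +50, 85.6% ± 2.88 (n = 23) at CpG +0 and 90.9% ± 7.93 (n = 22) at CpG +123. CpG +43 and CpG +50, which are 7 bp apart, thus differed more than CpG +0 and CpG +123, at opposite ends. CpG +43 was the lowest of the 6 in 90 of 91 larvae, and the exception was GR mutant control replicate 3, with 42.1% at CpG +50 and 45.2% at CpG +43. CpG +123 was the highest in 84 of 91 larvae. The middle of the order was less fixed: CpG +35 was above CpG +64 in 69 of 91 larvae, and CpG +0 above CpG +50 in 82 of 91. The same order of group means held in all 4 groups below 300 reads. At 1000 reads or more it held only in GR mutant control (n = 16). There, wild-type control (n = 3), wild-type betamethasone (n = 12) and GR mutant betamethasone (n = 2) departed from it. Wild-type control (n = 3) also departed from it at 300 to under 1000 reads. The median distance between the lowest and highest CpG of a larva was 65.1 percentage points. In the 7 other amplicons it was 3.93, 6.47 and 85.9 points on chromosome 6, 34.3 on chromosome 8, 53.6 on chromosome 15, 58.0 on chromosome 16 and 100 on chromosome 2.

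**Figure D1:**
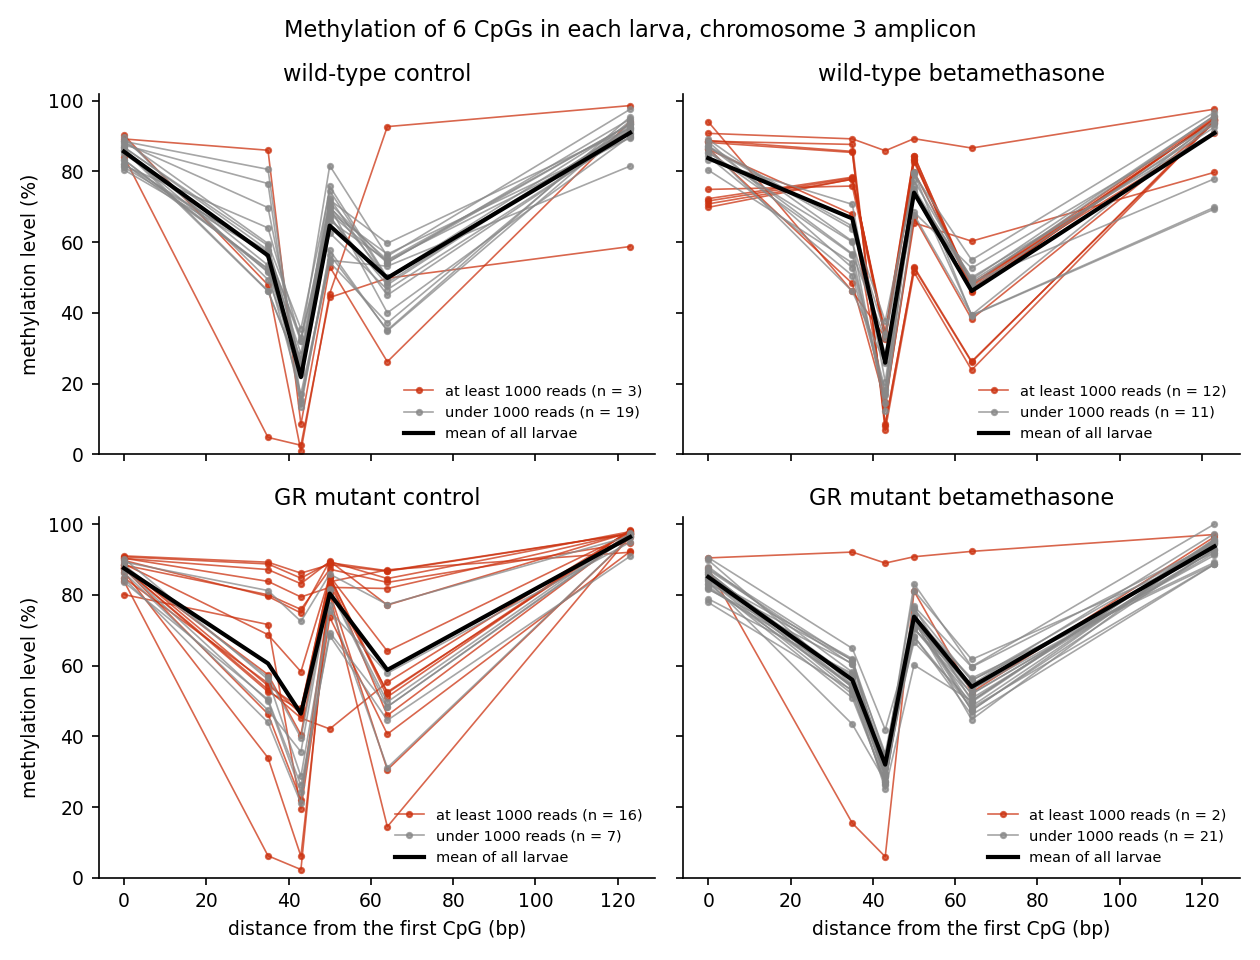
Methylation level (%) of the 6 CpGs by their distance in bp from CpG +0, in 4 panels for the 4 groups. Thin lines are single larvae, coloured by depth under 1000 or at least 1000 reads, and the thick line is the group mean. Deep libraries spread from 0.934% to 89.0% at CpG +43. Libraries under 300 reads, which are not coloured apart, ran from 14.5% to 41.9% there.

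The larva-to-larva spread differed by depth. In the libraries under 300 reads of all groups together, mean levels were 85.1% ± 2.87 at CpG +0, 55.7% ± 5.45 at CpG +35, 28.4% ± 5.28 at CpG +43, 71.6% ± 5.25 at CpG +50 and 51.1% ± 5.41 at CpG +64 (SD, n = 47), and 92.7% ± 4.32 at CpG +123 (n = 46). These SDs were 1.74 times those of binomial sampling at the same depths at CpG +123, and 0.829 to 1.20 times at the other CpGs. Apart from CpG +123, the spread was thus close to counting error. In the 33 libraries with at least 1000 reads, the means were 85.7%, 65.2%, 38.3%, 75.8%, 56.1% and 94.2% in order of position. There the SDs were 6.46, 24.2, 29.6, 15.3, 22.7 and 7.24 percentage points, which is 12.1 to 39.9 times binomial sampling. The deeper libraries therefore differed from each other by far more than their read counts allow, and the shallower ones by much less. Under 300 reads, the SD of the amplicon level was 1.58 times binomial sampling over all groups. In wild-type betamethasone libraries of this class (n = 6) it was 2.57 times, and the SD at CpG +123 was 3.39 times. The largest distance of a larva from the mean profile of the libraries under 300 reads, over the 6 CpGs, had a median of 6.24 points in those libraries, 15.8 points at 300 to under 1000 reads and 29.6 points at 1000 reads or more. The shallow libraries were mostly shallow at this amplicon rather than as a whole: the median number of cytosine calls was 1120140 in libraries under 1000 reads here and 1401560 in the others. The lowest numbers were 70334 and 704352, so not every shallow library was shallow at this amplicon alone. Calls at this amplicon are part of these totals.

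The distance between group means depended on depth as well. At CpG +43 the range between the lowest and highest of the 4 group means was 24.8 points over all libraries, 11.9 points under 1000 reads and 4.58 points under 300 reads. At CpG +50 it was 15.3, 9.40 and 3.72 points. For the level of the amplicon, with reads summed over the 6 CpGs, it was 10.3, 4.35 and 1.89 points. The ranges did not fall step by step at every CpG: at CpG +123 they were 5.54, 7.50 and 4.13 points, and at CpG +35 10.7, 2.66 and 5.73 points. At CpG +64 they were 12.6, 5.16 and 3.32 points, and at CpG +0 3.82, 2.44 and 2.38 points. In the deep class the ranges were 47.3 points at CpG +43, 38.3 at CpG +50 and 19.9 for the amplicon, with 2 to 16 larvae per group.

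**Figure D2:**
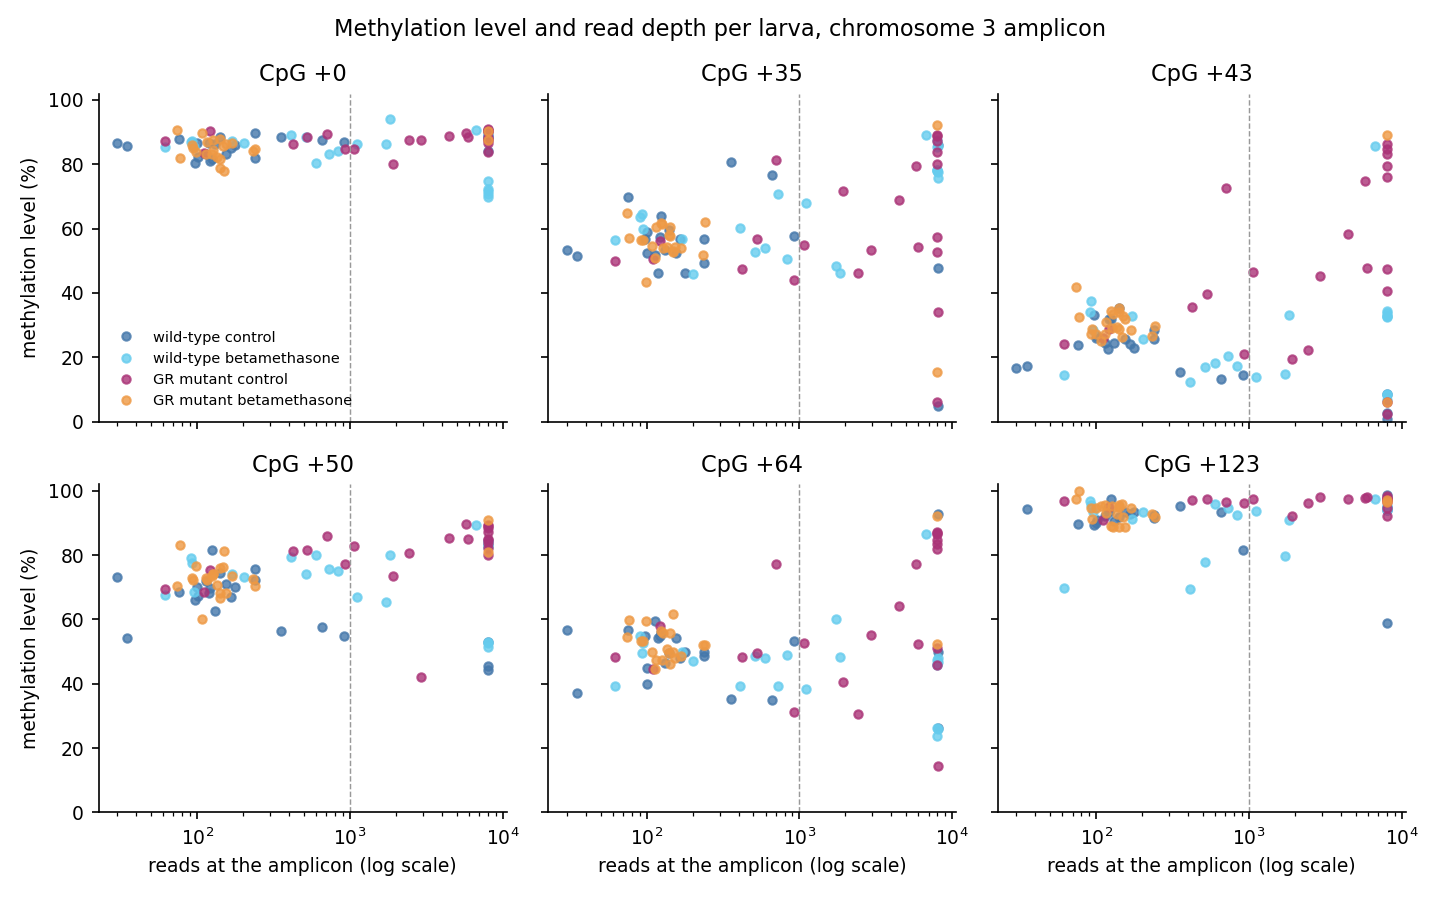
Methylation level (%) against depth (median reads over the 6 CpGs, log axis), 1 point per larva coloured by group, for each CpG, with a dashed line at 1000 reads. Levels at CpG +43 lie between 14.5% and 41.9% in libraries under 300 reads and fan out above that depth.

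The genotypes in control were compared first, since they gave the most differences. CpG +43 was 0.934% at the lowest, 24.1% at the median and 35.5% at the highest in wild-type control, and 2.35%, 45.2% and 86.1% in GR mutant control. The groups overlapped, but the upper part of the mutant range had no counterpart in wild-type control. In wild type under betamethasone, replicate 23, with a depth of 6719.5 reads, had 85.8%, and replicate 6, with 93 reads, had 37.6%. The difference was 24.8 points (SE 5.76, adjusted p = 0.00383 by beta-binomial regression with Benjamini-Hochberg adjustment over the 50 CpGs, as for all CpGs that follow), and 18 of 23 mutant larvae were above the wild-type median. CpG +50 ran from 44.3% over 68.1% to 81.6% in wild type and from 42.1% over 82.9% to 89.6% in the mutant, a difference of 15.3 points (SE 2.95, adjusted p = 1.22e-05). All but 1 of the 23 mutant larvae were above the wild-type median. CpG +123 ran from 58.7% over 92.5% to 98.6% in wild type and from 90.9% over 97.2% to 98.4% in the mutant, 5.47 points higher (SE 1.74, adjusted p = 0.00266, 20 of 23 above). In means of runs of 4 neighbouring replicates, CpG +43 did not pass, at 23.8 points (adjusted p = 0.0637 by an exact permutation test). The wild-type low at CpG +123 was 1 larva, control replicate 2.

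The other 3 CpGs did not pass in control. The mutant was 1.92 points higher at CpG +0 (95% interval 0.314 to 3.53, adjusted p = 0.158), 4.53 at CpG +35 (−5.85 to 14.9, adjusted p = 0.456) and 8.62 at CpG +64 (−1.32 to 18.6, adjusted p = 0.188). Thus 3 of 6 CpGs passed, all higher in the mutant, where 36% of all 50 CpGs passed and 22% passed as higher. A quasi-binomial test, in which deeper libraries count for more, also called these 3 CpGs, against 38% of the 50, and the permutation test did so against 30%. The amplicon as a whole stood at 61.4% ± 5.34 (SD, n = 22) in wild type and 71.6% ± 11.4 (n = 23) in the mutant, 10.3 points higher (SE 2.64, adjusted p = 0.000452 over the 8 amplicons, of which 37.5% passed).

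Depth separated these groups too, with 3 of 24 wild-type and 16 of 24 mutant libraries in the deep class. Among libraries under 1000 reads, with 7 mutant and 19 or 20 wild-type larvae, CpG +50 was still 9.40 points higher (SE 2.94, adjusted p = 0.00836) and CpG +123 3.71 points higher (SE 1.14, adjusted p = 0.0143), by the beta-binomial regression, 2 of 6 CpGs against 20% of the 50. At CpG +43 the difference was 11.2 points (SE 6.80, adjusted p = 0.0754), and for the amplicon 4.35 points (SE 3.20, adjusted p = 0.0631). In this class 4 of the 7 mutant and 3 of the wild-type libraries had 300 reads or more. Those 4 mutant libraries had 21.1% to 72.5% at CpG +43 and 77.1% to 85.9% at CpG +50, and the 3 wild-type libraries 13.3% to 15.4% and 54.8% to 57.6%. Under 300 reads, with 3 mutant and 17 wild-type larvae, the difference was 0.381 points at CpG +43 (SE 1.80) and 1.45 points at CpG +50 (SE 2.60), and 0 of the 6 CpGs passed by the beta-binomial regression, or had an unadjusted p under 0.05, against 14.9% of 47 CpGs tested that passed. With depth as a covariate in the beta-binomial regression, the 3 CpGs passed as before, at 22.3, 17.3 and 6.99 points (adjusted p = 0.00567, 4.40e-05 and 0.0249), as did the amplicon at 8.86 points (adjusted p = 0.0293). With that covariate, 36% of the 50 CpGs passed. The covariate fit rests on a single slope for both genotypes, and only 3 deep wild-type libraries inform it. These were 8.48%, 2.55% and 0.934% methylated at CpG +43, below the lowest of the wild-type libraries under 1000 reads, while the deep mutant libraries ran from 2.35% over 47.7% to 86.1%.

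**Figure D3:**
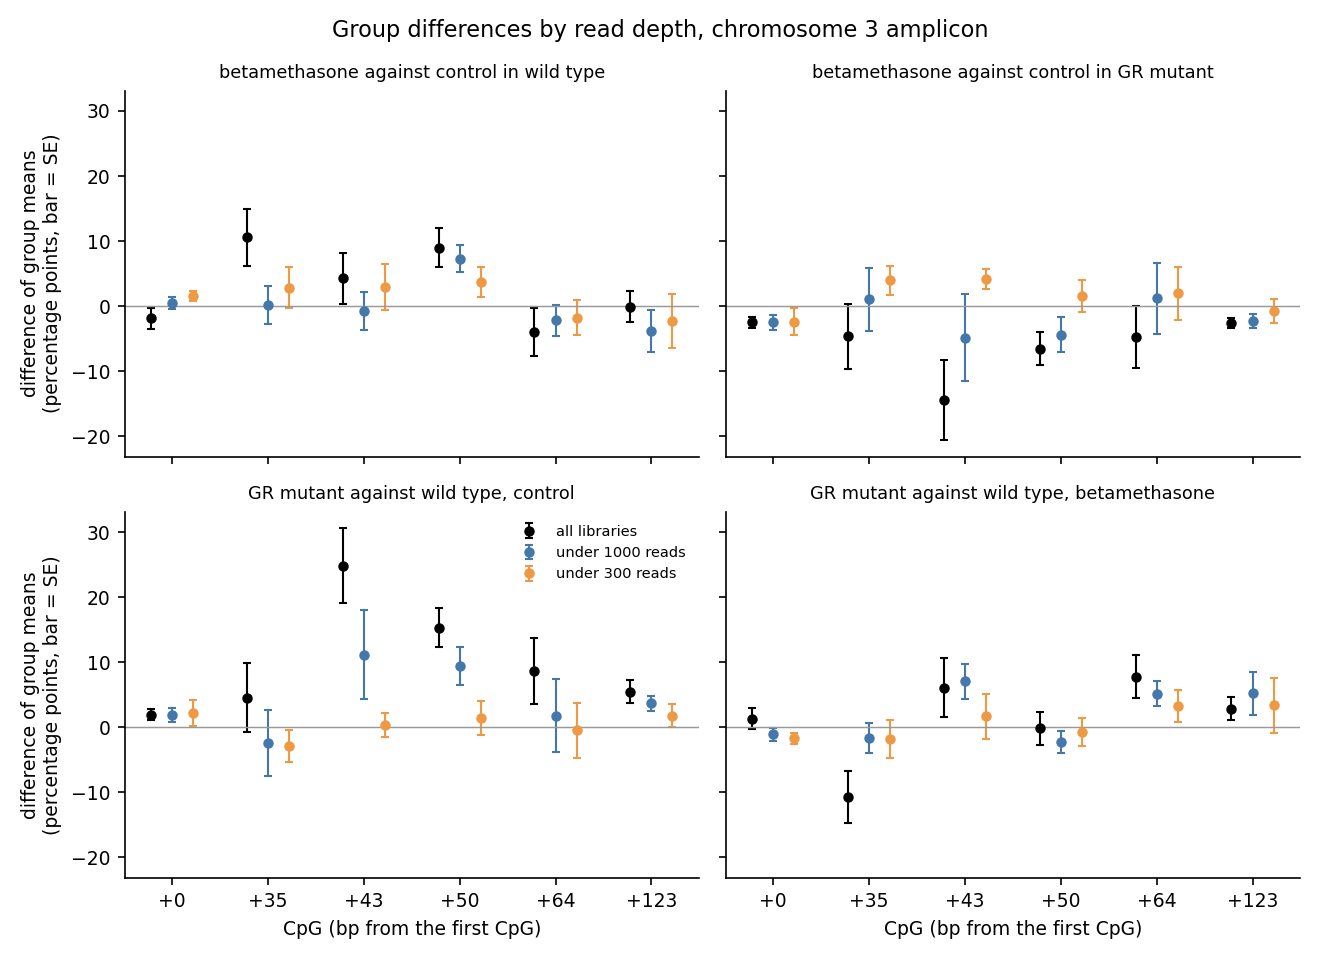
Differences between group means (percentage points) at each CpG, with bars showing the SE, for each pair of groups compared. Colours mark all libraries, those under 1000 reads and those under 300 reads. The differences at CpG +43 and CpG +50 between the genotypes in control fall from 24.8 and 15.3 points to 0.381 and 1.45 points under 300 reads.

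Betamethasone in wild type was compared next. CpG +50 ran from 44.3% over 68.1% to 81.6% in control and from 51.5% over 75.7% to 89.2% under betamethasone. It was 8.95 points higher (SE 2.99, adjusted p = 0.0101), with 17 of 23 treated larvae above the control median. CpG +35 ran from 4.77% over 56.6% to 86.0% in control and from 46.0% over 64.5% to 89.2% when treated, a difference of 10.6 points that did not pass (SE 4.35, adjusted p = 0.0717). CpG +43, at 25.9% ± 16.5 when treated, differed by 4.30 points (95% interval −3.42 to 12.0) and CpG +64, at 46.2% ± 12.6, by −3.98 points (−11.3 to 3.29), without passing. CpG +0 and CpG +123 were 83.7% ± 6.94 and 90.8% ± 8.19 in treated larvae and differed by −1.89 and −0.0663 points (adjusted p = 0.629 and 0.932). In all, 1 of 6 CpGs passed, where 22% of the 50 CpGs did, so the share of these CpGs was near the background. The amplicon was 3.14 points higher (SE 1.83, adjusted p = 0.124).

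Among libraries under 1000 reads, CpG +50 was 7.30 points higher under betamethasone (SE 2.04, adjusted p = 0.0104, 11 treated and 20 control larvae), 1 of 6 CpGs against 20% of all CpGs in such libraries. In this class 5 treated and 3 control larvae had 300 reads or more, with means of 76.8% and 56.3% at CpG +50. Under 300 reads the difference was 3.72 points (SE 2.36, adjusted p = 0.360 by the same regression, 6 and 17 larvae). Treated larvae fell into separate profiles at depth. CpG +0, which was no lower than 77.9% in any larva of the other 3 groups, was 69.8% to 74.9% in betamethasone replicates 3, 16, 18, 19 and 22, all with 8010.5 reads or more. Of these, 4 lay within 2.45 points of each other at all 6 CpGs, with means of 71.1%, 78.0%, 33.3%, 83.9%, 46.6% and 94.7%.

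In GR mutants, betamethasone larvae were lower at CpG +123. It ran from 90.9% over 97.2% to 98.4% in control and from 88.6% over 94.6% to 100% when treated. The difference was −2.65 points (SE 0.765, adjusted p = 0.00943), with 21 of 23 treated larvae below the control median, although the ranges overlapped over most of their length. At CpG +43 the treated larvae ran from 5.98% over 29.4% to 89.0%, and 22 of 23 were below the control median of 45.2%. The difference of −14.4 points did not pass (SE 6.16, adjusted p = 0.511), and neither did −6.54 points at CpG +50 (SE 2.49, adjusted p = 0.0641). CpG +0, +35 and +64 were 85.1% ± 3.31, 56.0% ± 12.4 and 54.0% ± 9.49 in treated larvae, differing by −2.48, −4.64 and −4.79 points (adjusted p = 0.145, 0.641 and 0.641). Thus 1 of 6 CpGs passed, the only one of the 50 CpGs to do so (2%). The amplicon was 6.02 points lower (SE 2.73, adjusted p = 0.201).

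Depth was the reverse of the wild-type pattern, with 16 deep libraries in control and 2 under betamethasone. Those 2 were 5.98% and 89.0% methylated at CpG +43, and 15.4% and 92.1% at CpG +35, the lowest and highest values of the group. The remaining 21 had under 300 reads and lay between 25% and 41.9% at CpG +43. Under 1000 reads the differences were −2.30 points at CpG +123 (SE 1.09, adjusted p = 0.0987) and −4.36 points at CpG +50 (SE 2.68, adjusted p = 0.0987), by the beta-binomial regression with 21 treated and 7 control larvae, and 0 of 6 CpGs passed against 0% of all CpGs, with 3 of the 6 at an unadjusted p under 0.05. All 21 treated larvae of this class had under 300 reads, and 4 of the 7 controls had 300 or more. Under 300 reads, with 3 control larvae, the direction turned at CpG +43 to 4.20 points (SE 1.56) and at CpG +50 to 1.60 points (SE 2.43), and CpG +123 differed by −0.763 points (SE 1.85). Again 0 of 6 CpGs passed by the beta-binomial regression or had an unadjusted p under 0.05, and 0% of the 47 tested passed. Over all libraries, CpG +123 did not pass by the permutation test or with depth as a covariate.

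The genotypes were also compared under betamethasone. CpG +35 was 10.7 points lower in the mutant (SE 3.92, adjusted p = 0.0763), with 21 of 23 mutant larvae below the wild-type median. CpG +64 was 7.81 points higher (SE 3.29, adjusted p = 0.146, 19 of 23 above), and CpG +43 6.12 points higher (SE 4.50, adjusted p = 0.450, 21 of 23 above). CpG +50 differed by −0.140 points (95% interval −5.13 to 4.85), CpG +0 by 1.34 points (−1.81 to 4.48) and CpG +123 by 2.89 points (−0.684 to 6.46). None of the 6 CpGs passed by the beta-binomial regression, where 10% of the 50 CpGs did; 2 of the 6, CpG +35 and CpG +64, had an unadjusted p under 0.05. The quasi-binomial test called 3 of the 6, CpG +0, +35 and +64, against 26% of the 50, and the permutation test 0 against 10%. The amplicon differed by 1.13 points (−2.68 to 4.95, adjusted p = 0.805). Under 1000 reads, 2 of the 6 CpGs passed, against 14% of the 50. CpG +43 was 7.05 points higher (SE 2.75, adjusted p = 0.00439), with all 21 mutant larvae above the median of the 11 wild-type larvae, and CpG +64 was 5.16 points higher (SE 1.93, adjusted p = 0.0253). Under 300 reads the difference at CpG +43 was 1.68 points (SE 3.45), and 0 of the 6 passed by the beta-binomial regression or had an unadjusted p under 0.05, against 6% that passed.

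The difference of the betamethasone effects between the genotypes was tested as an interaction over all 4 groups. CpG +50 moved by 8.95 points in wild type and by −6.54 points in GR mutants, a difference of −15.5 points (SE 3.89, adjusted p = 0.00174). This was 1 of 6 CpGs, against 14% of the 50. The amplicon interaction was −9.16 points (SE 3.28, adjusted p = 0.0205). At CpG +43 it was −18.7 points (SE 7.31, adjusted p = 0.164) and at CpG +35 −15.2 points (SE 6.59, adjusted p = 0.105). The depth of the groups crossed in the same way, with the deeper libraries in wild-type betamethasone and in GR mutant control. Under 1000 reads, the interaction at CpG +50 was −11.7 points (SE 3.37, adjusted p = 0.00323), and for the amplicon −2.35 points (SE 3.46, adjusted p = 0.428). Under 300 reads these were −2.12 points (SE 3.38, adjusted p = 0.858) and 0.0547 points (SE 2.90, adjusted p = 0.935). With depth as a covariate in the beta-binomial regression CpG +50 passed (−15.6 points, adjusted p = 0.0303) and the amplicon did not (−5.32 points, adjusted p = 0.516). Under 1000 reads and with the covariate, 1 of 6 CpGs passed, against 14% and 10% of the 50.

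Within a group, where genotype and treatment were the same, the amplicon level did not move with depth in 1 direction. The correlation of the level with log10 depth was r = −0.520 (Spearman rho −0.342) in control and 0.239 (0.108) in treated wild-type larvae, and 0.409 (0.333) in control and 0.383 (−0.232) in treated mutants, over 22, 23, 23 and 23 larvae. The permutation p-values of r were 0.0234, 0.292, 0.0531 and 0.0870, and 0.0935, 0.292, 0.106 and 0.116 after Benjamini-Hochberg adjustment over the 4 groups. Those of rho were 0.118, 0.622, 0.122 and 0.286, at least 0.243 after adjustment. Without the 2 larvae farthest from the median depth, r was −0.288, 0.221, 0.319 and −0.441. In wild-type control the value rested on the 2 farthest libraries, and in treated GR mutants its sign turned without them. Correlations with depth were not computed for single CpGs. Group means follow for under 300, 300 to under 1000 and at least 1000 reads. At CpG +43 they were 26.0%, 14.4% and 3.99% in wild-type control (n = 17, 3 and 3). In GR mutant control they were 26.3%, 42.2% and 51.2% (n = 3, 4 and 16). At CpG +50 wild-type control had 69.6%, 56.3% and 47.6%, and GR mutant control 71.1%, 81.5% and 81.8%. In treated wild-type larvae neither CpG moved in 1 direction. The depth difference itself was not randomised, and its part in the group differences was not tested beyond these strata and the covariate.

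Deep libraries often shared a profile. Of the 42 libraries with at least 500 reads at each CpG, 25 fell into 9 sets of 2 to 4 libraries. All members of a set lay within 5 percentage points of each other at all 6 CpGs. Wild-type betamethasone replicate 19 was in no set, although it lay within 5 points of replicate 18. Of these sets, 3 joined libraries of different groups. Wild-type betamethasone replicate 23 and GR mutant control replicates 4, 19 and 22 were high throughout, with means of 90.7%, 88.6%, 85.0%, 89.1%, 86.2% and 97.5% in order of position. Wild-type control replicate 22 and wild-type betamethasone replicates 4, 17 and 20 instead had 88.6%, 86.1%, 7.98%, 52.5%, 25.6% and 94.2%. The first of these profiles is nearly flat. The second departs from the order of the group means, with CpG +35 above CpG +50, and is low at CpG +43, +50 and +64. Pairs within 5 points, in a set or not, made up 7.28% of pairs from the same group (22 of 302) and 1.25% of pairs from different groups (7 of 559). Of the 29 such pairs, 7 were also alike at 1 or more other amplicons and 0 were alike at all of them. In 118 comparisons of these pairs at the other amplicons, 9 lay within 5 points. The rate for other pairs of libraries was not computed. Counting the like libraries of a group once left 22, 17, 16 and 23 larvae. By beta-binomial regression, the control genotype difference was then 20.3 points at CpG +43 (SE 6.83, adjusted p = 0.0315), 13.5 at CpG +50 (SE 3.54, adjusted p = 0.000432) and 5.06 at CpG +123 (SE 1.79, adjusted p = 0.0219). That was 3 of 6 CpGs, where 36% of the 50 passed, with libraries not merged at the other amplicons. The protocols describe an input of 100 pg bisulfite-treated DNA, amplified over 40 cycles. The part of this in the like profiles and in the spread at depth was not tested.

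Non-CpG cytosines, whose reads as C include incomplete conversion, were low in all groups. Their level over the 24 such positions was 0.700% ± 0.300 (SD, n = 24) in control and 0.920% ± 0.333 (n = 23) in treated wild-type larvae. In GR mutants it was 0.808% ± 0.368 (n = 24) in control and 0.692% ± 0.175 (n = 23) when treated. It was 0.220 points higher under betamethasone in wild type (adjusted p = 0.0431 by a two-sided permutation test over the 4 pairs) and differed by −0.228 points between mutant and wild type under betamethasone (adjusted p = 0.0226). The 2 other pairs did not pass (adjusted p = 0.239 and 0.271). The part of incomplete conversion in the CpG differences was not tested. At positions more than 30 bp from an end of the amplicon, non-CpG levels were higher. They were 1.16% in control and 1.51% in treated wild-type larvae, and 1.32% in control and 1.14% in treated GR mutants. There the difference was 0.350 points for betamethasone in wild type and −0.362 points for mutant against wild type under betamethasone.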

How the data were processed

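DNA methylation was measured by bisulfite PCR amplicons with paired reads of 150 bp. The submitters' processing notes name FastQC, cutadapt, BS-Seeker2 and build GRCz10; the sources used here give no version or setting. For each library, the authors deposited a count of methylated reads, a count of all reads and the methylation level as a fraction for each cytosine. The deposited fraction differed from the ratio of the deposited counts, beyond rounding to 2 decimals, at 0 cytosines, and the counts were used.

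Groups came from the labels. A CpG entered with at least 30 reads in a larva, and the amplicon level summed reads over all 6 CpGs. Methylated reads were compared by beta-binomial regression (1 observation per larva, two-sided likelihood ratio test) over all 50 CpGs or 8 amplicons of the series, with Benjamini-Hochberg adjustment and a threshold of 0.05. Differences are between unweighted group means, and 95% intervals are 1.96 SE. For the quasi-binomial test the difference is instead between group levels with reads pooled over larvae. For the depth covariate, the replicate block and the dispersion per depth class it is a least-squares difference of levels adjusted for that term. All 6 CpGs are named. The test was checked on simulated data. Every simulated larva had the same dispersion whatever its depth, so the check does not cover a spread that differs by depth. The amplicon, its CpGs and the tests were chosen with earlier results of these data known. The alternatives were minima of 10, 100 or 1000 reads, a permutation test with 100000 resamples, a quasi-binomial test, a depth covariate, depth classes, 18 libraries above 2% non-CpG methylation left out, matching libraries counted once, a replicate block and means of runs of 4 replicates. The 2% limit applied to non-CpG cytosines of all 8 amplicons more than 30 bp from an end, not to this amplicon alone. The class under 300 reads, near-matching libraries counted once and a dispersion per depth class were added after seeing the data. Tests used scipy 1.17.1, numpy 2.4.6 and pandas 2.3.3 under Python 3.11.15, and figures matplotlib 3.10.9.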

Additional observations from a re-analysis of the deposited data

Results flagged for a closer look

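The effect of betamethasone differed between the genotypes at CpG +50 (25888054), by an interaction of −15.5 points (adjusted p = 0.00174 by beta-binomial regression): it was 8.95 points in wild type and −6.54 points in GR mutants. The level of the whole amplicon differed in the same way, by −9.16 points (adjusted p = 0.0205), with 3.14 points in wild type and −6.02 points in GR mutants. Median depth crossed with the same groups, and under 300 reads these interactions were −2.12 and 0.0547 points.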

How the results depend on the processing

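The sources used here give no clutch or plate, read depth bounds counting error only, and most wild-type control and GR mutant betamethasone libraries were too shallow to show differences of a few points between larvae. Of 537 values recomputed under an alternative, 49 turned sign, 24 passed newly, 29 no longer passed and 25 were counts that moved. The cause was not tested. Quasi-binomial differences pool reads over larvae, and those with the covariate, block or dispersion per class are adjusted. These values therefore also differ in measure from the main ones. The planned comparison of libraries with at least 1000 reads was not run, since no comparison had 5 such larvae in both groups.

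For betamethasone in wild type, 1 CpG passed in the main test, 5 by the quasi-binomial test (40% of the 50 CpGs), 2 without libraries over 2% non-CpG methylation (23.9% of 46), 0 by means of runs (0%) and 0 under 300 reads (6%); the amplicon passed by the quasi-binomial test at 11.2 points. CpG +0 turned to 0.485 points under 1000 reads, 1.52 under 300 and 0.0402 with matching libraries counted once. CpG +43 turned to −0.746 under 1000 reads. CpG +123 turned to 0.313 with at least 100 reads, 9.46 by the quasi-binomial test and 0.925 without libraries over 2%. The non-CpG difference was 0.350 points beyond 30 bp from an end (adjusted p = 0.0578 by permutation).

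For betamethasone in GR mutants, 1 CpG passed in the main test and 0 by the permutation and quasi-binomial tests, with the depth covariate, under 1000 and 300 reads, without libraries over 2%, with matching or near-matching libraries counted once, by means of runs and with a dispersion per depth class, where 4% of all CpGs passed by the quasi-binomial test and 0% in each other case. The amplicon turned to 0.355 points with the covariate and 1.35 under 300 reads. Values that turned were 0.0173 for CpG +0 and 3.59 for CpG +64 (quasi-binomial), 0.266 for CpG +50 and 6.32 for CpG +64 (covariate), 1.04 for CpG +35 and 1.19 for CpG +64 (under 1000 reads), 3.47 for CpG +64 (dispersion per class), and 3.99, 4.20, 1.60 and 1.96 for CpGs +35, +43, +50 and +64 (under 300 reads).

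For the genotypes in control, 3 CpGs passed in the main test, 2 by means of runs (26% of the 50; CpG +43 did not pass, at 23.8 points) and 0 under 300 reads (14.9% of 47). The amplicon did not pass under 1000 reads (4.35 points), under 300 reads (0.546) or by means of runs (9.89, an exact permutation test with a smallest possible p of 0.00216). CpG +35 turned to −2.42 under 1000 reads and −2.89 under 300, and CpG +64 to −0.425 under 300. For the genotypes under betamethasone, 0 CpGs passed by the main beta-binomial test, 3 by the quasi-binomial test (26%), 2 under 1000 reads (14%) and 2 with a dispersion per class (14%). CpG +0 turned to −0.192 (covariate), −1.08 (under 1000 reads), −1.71 (under 300), −0.595 (matching once) and −0.428 (near-matching once). CpG +50, at −0.140, turned to 10.4 (quasi-binomial), 1.50 (covariate), 0.555 (matching once), 0.403 (means of runs) and 0.635 (dispersion per class).

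For the interaction, 1 CpG passed in the main test, 3 by the quasi-binomial test (24%), 0 by means of runs (0%) and 0 under 300 reads (0%). The amplicon did not pass by the quasi-binomial test (−13.9 points), with the covariate (−5.32), under 1000 reads (−2.35), by means of runs (−8.39), with near-matching libraries counted once (−7.45) or with a dispersion per class (−5.97), and it was 0.0547 under 300 reads. CpG +0 turned to 0.361 (10 reads) and 7.42 (quasi-binomial). CpG +64 turned to 14.6 (quasi-binomial), 6.35 (covariate), 3.37 (under 1000 reads), 3.75 (under 300), 1.35 (without libraries over 2%), 0.587 (means of runs) and 5.78 (dispersion per class). CpGs +35 and +123 turned to 0.802 and 1.49 under 1000 reads, and CpGs +35, +43 and +123 to 1.16, 1.30 and 1.55 under 300.

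The groups share replicate numbers, and the labels do not say whether equal numbers pair larvae. Between 8 of 24 and 15 of 23 pairs correlated over 0.1, with a median r from −0.130 to 0.285 by comparison. These counts cannot decide whether larvae were paired. With the replicate block, more CpGs passed throughout the series: 3 of 6 here for betamethasone in wild type (38% of the 50), 3 in GR mutants (30%), 4 for the genotypes in control (58%; CpG +64 newly, adjusted p = 0.0298 by the beta-binomial regression), 3 for the genotypes under betamethasone (38%) and 2 for the interaction (20%). With this block the GR mutant amplicon passed at −6.33 points (adjusted p = 0.00877 by the beta-binomial regression). CpG +50 between the genotypes under betamethasone was 0.00724 points. The block fits a term for each replicate number with few larvae per term, so its likelihood ratio p-values can be too small. No conclusion is drawn from the added passes.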
